A study of Mus musculus with 10 samples.

Results

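Oxidative phosphorylation subunit genes were compared in whole liver between GRMAC mice and their GRflox littermates. The genes were taken by symbol from the table of read counts: symbols that begin with Nduf followed by a, b, c, s or v and a number, with Uqcr, with Atp5 or with Cox and a number of 4 to 8, and the symbols Sdha, Sdhb, Sdhc and Sdhd. This gave 82 of the 19764 genes in the table. Of these, 34 belong to complex I, 4 to complex II, 8 to complex III, 18 to complex IV and 14 to complex V. The other 4 carry such symbols but lie outside the 5 complexes: Cox7a2l, Ndufa4l2, Atp5s and Atp5sl. The choice by symbol used no expression value, though it was made with earlier results of these data known. A filter on low counts left 77 of the 82 among the 12558 genes tested.

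The 5 GRMAC libraries came from female mice with a floxed glucocorticoid receptor gene (GRflox) and LysM-Cre+/-, a Cre recombinase driven by the lysozyme M locus, which is active in macrophages, neutrophils and other myeloid cells. The 5 GRflox libraries came from female littermate controls with the floxed gene and no Cre, so effects of Cre and of receptor loss cannot be told apart. All mice, in both groups, were fasted for 8 h from ZT12, the start of the dark, active phase, and polyadenylated RNA of whole liver was sequenced. The labels give neither age nor strain and do not say that each library is a separate animal, so the p-values measure the spread between these libraries, which may be technical.

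Oxidative phosphorylation is the last stage of fuel combustion in mitochondria. Complex I takes electrons from NADH and complex II from succinate, complex III passes them to cytochrome c, complex IV passes them to oxygen, and complex V, the ATP synthase, uses the resulting proton gradient to make ATP. All but complex II also hold subunits encoded by mitochondrial DNA; the genes described here are nuclear. In the fasted liver this machinery takes the electrons released by fatty acid oxidation and supplies ATP for glucose production. Most of the RNA of a whole liver comes from hepatocytes, in which LysM-Cre is not meant to act, and in bulk RNA fewer cells of a type and less RNA per cell cannot be told apart.

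The libraries held 23258884 to 26116916 counts in GRMAC and 25697931 to 27692528 counts in GRflox (two-sided exact permutation test, p = 0.0159). The receptor gene itself, Nr3c1, was at 79.9, 93.96, 74.7, 77.4 and 86.5 CPM in GRMAC, against 69.6, 78.8, 70.5, 81.2 and 63.8 CPM in GRflox. GRflox 1, 3 and 5 lay below all GRMAC libraries, whereas GRflox 2 and 4 lay among them, and the fitted difference was 0.18 ± 0.08 on the log2 scale (edgeR, adjusted p = 0.277). Its whole-liver level gives no check of the loss in myeloid cells. Among liver cell markers, 2 of 8 hepatocyte genes and 2 of 7 Kupffer cell genes had a negative log2 fold change of GRMAC over GRflox, and the list medians were 0.05 and 0.08. The Kupffer cell genes summed to 199.8 to 282 CPM in GRMAC libraries and 165 to 246 CPM in GRflox libraries. With edgeR 0 of these 7 were called, and 2 were higher in GRMAC at an unadjusted p under 0.05: Cd5l at 0.55 ± 0.13 (adjusted p = 0.0928) and Folr2 at 0.41 ± 0.14 (adjusted p = 0.175). The 2 negative ones were Marco, the largest change of the list, at −0.85 ± 0.40 (edgeR, adjusted p = 0.327) and C6 at −0.32 ± 0.22 (adjusted p = 0.511). Cd5l was at 70.2, 63.4, 61.5, 88.2 and 55.98 CPM in GRMAC, against 45.8, 52.5, 36.4, 53.99 and 42.3 CPM in GRflox. All its GRMAC libraries lay above all GRflox libraries, as for 2.05% of all genes tested. DESeq2 called it (adjusted p = 0.0057), where it called 1.97% of all genes higher. No hepatocyte marker had an unadjusted p under 0.05. With edgeR no tested marker of monocytes or neutrophils (2 of 5 tested), endothelial cells (4 of 4), stellate cells or pericytes (4 of 5 listed) or red blood cells (1 of 5) was called. At an unadjusted p under 0.05, Ccr2, with 14 to 28 counts a library, was higher in GRMAC at 0.62 ± 0.21 (edgeR, adjusted p = 0.178). Stab2 was also higher, at 0.23 ± 0.08 (adjusted p = 0.204), and Itgam was lower, at −0.52 ± 0.21 (adjusted p = 0.231). The part of these cells in the values of the subunit genes was not tested. Markers of skeletal or heart muscle, tissues rich in these complexes, summed to 0.0768 to 0.215 CPM in GRMAC libraries and 0 to 0.195 CPM in GRflox libraries over 7 genes, with myoglobin (Mb) at 0 in all 10. Adipose markers summed to 0.165 to 0.278 CPM in GRMAC libraries and 0.150 to 0.351 CPM in GRflox libraries over 4 genes. Here CPM is a count divided by the library total scaled by TMM, per 1e6, and 3 counts in a library correspond to 0.111 to 0.129 CPM.

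The subunit genes were abundant and, gene by gene, differed little between the genotypes. Means are given ± SD over the 5 libraries of a group, and log2 fold changes of GRMAC over GRflox ± SE. Together these genes made up 0.921% to 1.01% of the counts of a library. Their summed level was 9550 ± 437 CPM in GRMAC and 9914 ± 271 CPM in GRflox (SD, n = 5 each). With edgeR's quasi-likelihood test and Benjamini-Hochberg adjustment over all genes tested, 0 of 77 were called lower in GRMAC and 0 of 77 higher at an adjusted p under 0.05. Over all genes tested, 0.0557% were called lower and 0.119% higher, 0.175% in all. At an unadjusted p under 0.05 the same test gave 8 lower, against 7.75% of all genes tested, and 0 higher, against 8.58%. DESeq2 called 1 of 77 lower, Uqcrfs1, and 0 higher, where it called 1.66% of all genes lower and 1.97% higher. With limma-voom 0 were called either way.

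The small differences leaned one way. The log2 fold change was negative in 61 of 77 genes, whereas 49.8% of all genes tested were negative. The median was −0.06 over the subunit genes and 0.00 over all genes tested. Without GRMAC 4, the library with the lowest levels of these genes, the median was −0.03 and 53 of 77 were negative. With scaling by library totals it was −0.04, with 55 negative, but the median over all genes tested then rose to 0.02. The subunit median minus that of all genes was −0.059 with this scaling and −0.059 in the main fit. This gap was not stable under other settings. It was −0.032 with a correction for GC content and length, and −0.034 without GRMAC 4. Over the alternatives run it ranged from −0.082 without GRMAC 2 to −0.030 without both GRMAC 4 and GRflox 4. The single genes ranged from −0.60 for Cox6b2 to 0.13 for Ndufc2. For 61 of 77 the 95% interval lay within a change of 1.25-fold in either direction, so larger differences of these genes were outside their intervals. The same held for 48.0% of all genes tested, whose median SE was 0.10, against 0.06 for the subunit genes. All GRMAC libraries lay below all GRflox libraries for 2 of 77 genes, Ndufa12 and Uqcrfs1, where 2.01% of all genes did so. The reverse held for 0 of 77, where 2.05% of all genes did so.

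**Figure D1:**
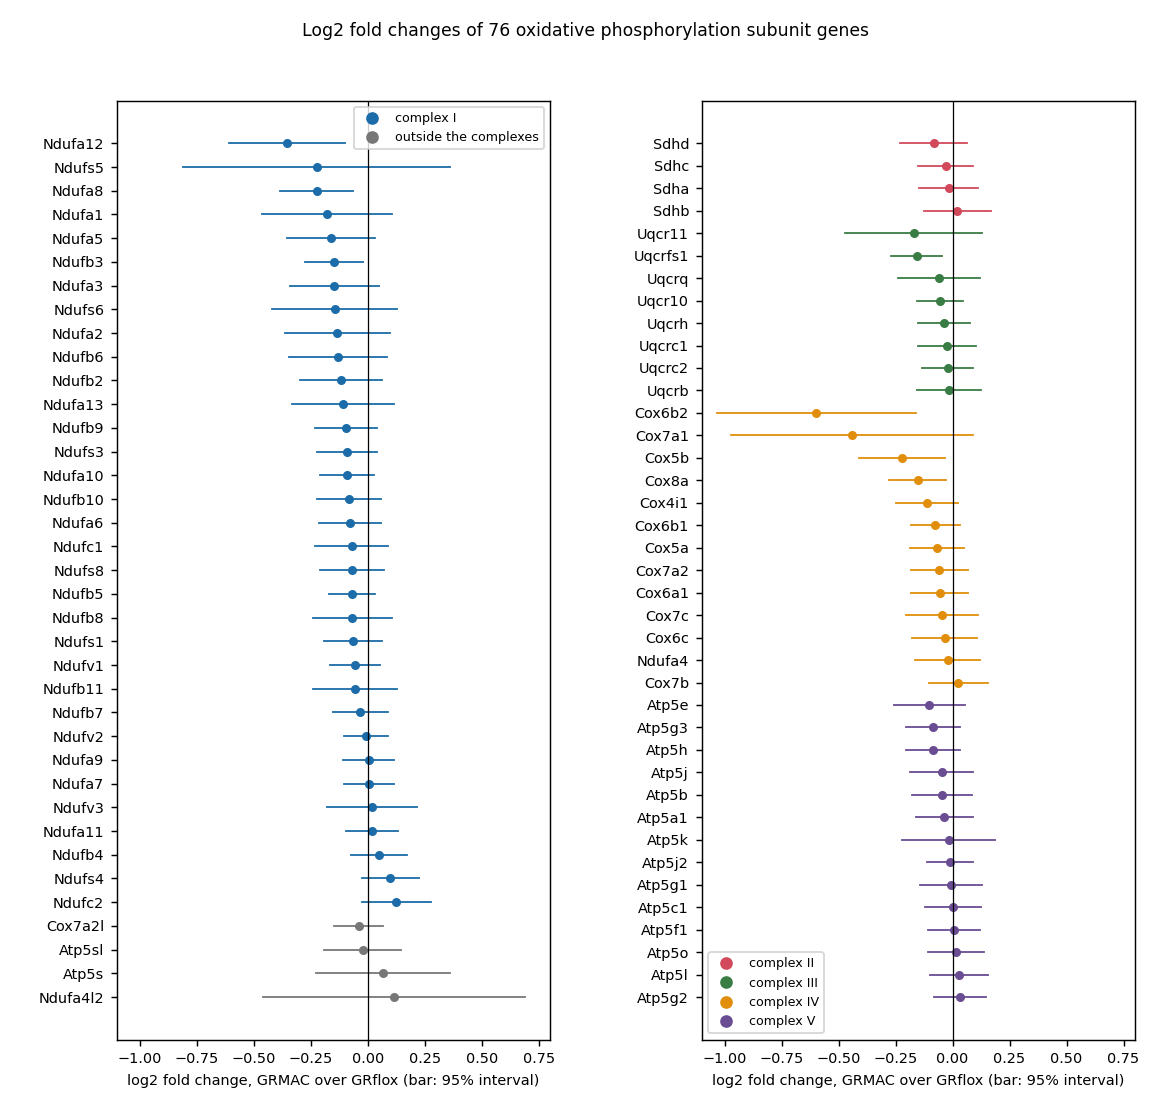
Log2 fold change of GRMAC over GRflox for 76 of the 77 tested genes, sorted within each complex (points, with bars for the 95% interval; n = 5 libraries each; edgeR). Most points lie left of the line at 0, 60 of 76, and most bars cross it.

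Levels were set side by side per length of transcript, as mean CPM per kb over all 10 libraries. The highest was Atp5b, the catalytic beta subunit of the ATP synthase, at 597 CPM per kb, followed by Cox4i1 at 436 and Atp5g3 at 434 CPM per kb. In complex I the highest was Ndufb9 at 196 CPM per kb, in complex III Uqcrh at 210.5 CPM per kb and in complex II Sdha at 160.1 CPM per kb. Among genes with at least 1 CPM, the medians were 70.4 CPM per kb in complex I, 127 in complex II and 162 in complex III. They were 216 in complex IV and 176 in complex V. Over all genes tested with a length, without that minimum, the median was 6.04 CPM per kb. Atp5g1 stood low at 17.6 CPM per kb, with a length taken from an annotated transcript of 4715 bases, so its level per kb may be understated. Ndufs5, an accessory complex I subunit, was at 1.76 CPM per kb, the lowest of its complex, with 12 to 38 counts a library. It shares a stretch of at least 50 bases with 1 annotated pseudogene, so reads could have been lost to that copy, which was not tested.

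**Figure D2:**
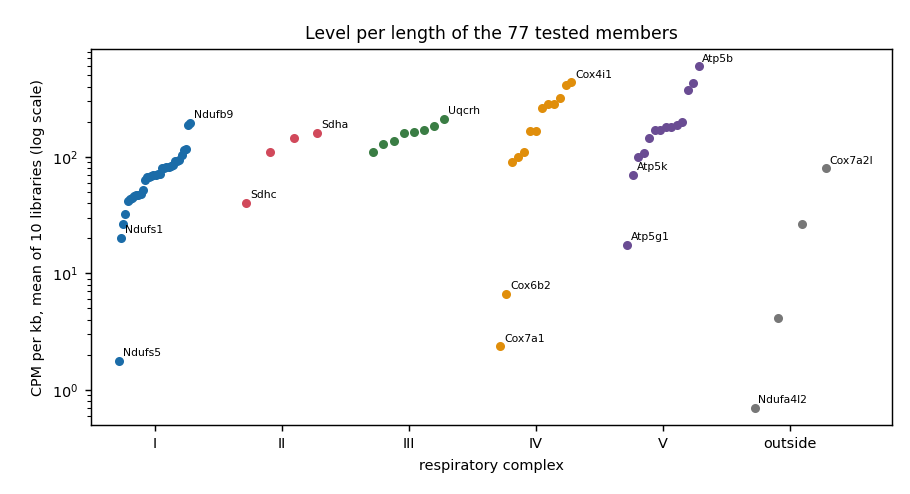
Mean level of each tested gene over the 10 libraries in CPM per kb of transcript, on a log scale, by complex and sorted within it. Atp5b was highest at 597 CPM per kb, and Cox6b2, Atp5s, Cox7a1, Ndufs5 and Ndufa4l2 stood below 7 CPM per kb.

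Complex I subunits had mostly lower means in GRMAC livers. Of 34 genes, all tested, 27 had a negative log2 fold change, with a median of −0.08 (−0.04 without both GRMAC 4 and GRflox 4). On leaving out 1 library this median ran from −0.112 without GRflox 1 to −0.054 without GRMAC 4. With a correction for GC content and length it was −0.054, where all genes tested had a median of −0.015. The 6 core subunits in the table, which belong to the hydrophilic arm that holds the flavin and iron-sulfur centres, were all negative with a median of −0.07. The 28 accessory subunits had a median of −0.09, and 21 were negative. None passed the adjusted test, and 4 were lower at an unadjusted p under 0.05, among them Ndufa8, Ndufa12 and Ndufb3.

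Ndufa8, an accessory subunit on the intermembrane side (mm10 chromosome 2, 36036334 to 36049292, minus strand), was at 48.5, 58.04, 57.7, 46.8 and 54.7 CPM in GRMAC, against 60.3, 68.3, 65.1, 56.9 and 59.5 CPM in GRflox, in the order of libraries 1 to 5. GRMAC 1 and 4 were lowest, and the groups overlapped, since GRMAC 2 and 3 exceeded GRflox 4. Its log2 fold change was −0.22 ± 0.07 (SE; unadjusted p = 0.00962, adjusted p = 0.173, edgeR). Ndufa12, an accessory subunit added late in assembly (mm10 chromosome 10, 94199009 to 94220948, plus strand), was at 16.7, 15.6, 16.1, 15.5 and 16.2 CPM in GRMAC, against 28.3, 17.5, 17.3, 20.05 and 19.2 CPM in GRflox. Every GRMAC library was below every GRflox library, and GRflox 1 stood far above the rest. The log2 fold change was −0.36 ± 0.12 (adjusted p = 0.173) and −0.21 without GRflox 1.

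Ndufb3, a membrane arm subunit, was at 31.3, 34.8, 31.5, 29.01 and 30.6 CPM in GRMAC, against 36.2, 35.4, 36.1, 33.00 and 33.6 CPM in GRflox; GRMAC 2 lay above GRflox 4 and 5. Its log2 fold change was −0.15 ± 0.06, with an adjusted p of 0.23 (edgeR).

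The other complex I genes, named as best known subunits or for the highest level per kb (Ndufb9), lay closer to 0. Ndufs1, the largest core subunit, averaged 52.2 ± 3.89 CPM in GRMAC and 54.6 ± 1.90 CPM in GRflox. Ndufv1, which binds the flavin that accepts electrons from NADH, averaged 133 ± 4.66 CPM in GRMAC and 138 ± 5.24 CPM in GRflox. Ndufb9, an accessory subunit, averaged 133 ± 9.54 CPM in GRMAC and 142 ± 8.07 CPM in GRflox. Their log2 fold changes were −0.07 ± 0.06, −0.06 ± 0.05 and −0.10 ± 0.06, each with a 95% interval that held 0. The 2 highest values in the complex, chosen after the values were seen, were Ndufc2 at 0.13 ± 0.07 and Ndufs4 at 0.10 ± 0.06, with adjusted p of 0.395 and 0.412. Ndufc2 was at 28.3, 33.3, 28.4, 26.9 and 30.9 CPM in GRMAC, against 25.5, 25.2, 28.9, 28.5 and 27.5 CPM in GRflox, with GRMAC 2 highest and wide overlap.

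Complex II, which is also an enzyme of the citric acid cycle, was nearly level between the genotypes. Sdha, the flavoprotein that oxidises succinate (mm10 chromosome 13, 74322255 to 74350240, minus strand), was at 453, 483, 491, 439 and 441 CPM in GRMAC, against 441, 469, 457, 497 and 470.0 CPM in GRflox. The groups overlapped over nearly their whole range. Its log2 fold change was −0.02 ± 0.06, with a 95% interval of −0.15 to 0.11. Sdhb, the iron-sulfur subunit, had 0.02 ± 0.07, and the membrane anchors Sdhc and Sdhd had −0.03 ± 0.06 and −0.08 ± 0.07. Sdhd averaged 174 ± 5.75 CPM in GRMAC and 184 ± 17.9 CPM in GRflox, and the spread in GRflox came from GRflox 3 and 4, at 205 and 199 CPM, above the others at 162 to 182 CPM. The median of the 4 was −0.02, from −0.04 without GRflox 1 to 0.00 without GRflox 4 on leaving out 1 library, and all 4 intervals lay within 1.25-fold.

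Complex III held the gene with the lowest p of all 77. Uqcrfs1 encodes the Rieske iron-sulfur protein, which takes electrons from ubiquinol (mm10 chromosome 13, 30540312 to 30545316, minus strand). It was at 209, 211, 208, 204 and 209 CPM in GRMAC, against 233, 214, 240.1, 239 and 235 CPM in GRflox. The GRMAC libraries were tightly grouped, all lay below the 5 GRflox libraries, and GRflox 2 came closest to them. The means were 208 ± 2.52 CPM in GRMAC and 232 ± 10.6 CPM in GRflox, and the log2 fold change was −0.16 ± 0.05, a change of −10.3% with a 95% interval of −17.0% to −3.06%. The difference had an unadjusted p of 0.00958 and did not pass the adjusted test with edgeR (adjusted p = 0.173). It did pass with DESeq2 (adjusted p = 0.0191). In the authors' deposited table its log2 fold change was −0.16 with an adjusted p of 0.0244, the only one of the 77 genes under 0.05 there, where 1.49% of all genes were lower and 1.84% higher.

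The other 7 complex III genes were also negative, with a median over all 8 of −0.05. This median was −0.02 without GRMAC 4 and −0.03 without GRflox 3. With scaling by library totals, where all genes tested had a median of 0.02, 7 of the 8 were negative. With a correction for GC content and length, where that median was −0.01, 7 of the 8 were also negative. Uqcrc1, a core protein of the matrix side, had −0.02 ± 0.06, and Uqcrc2, its partner, −0.02 ± 0.05. The small subunits Uqcrh, Uqcr10 and Uqcrq had −0.04 ± 0.05, −0.05 ± 0.05 and −0.06 ± 0.08. Uqcr11, another small subunit, was at 66.1, 81.7, 76.6, 51.8 and 66.02 CPM in GRMAC, against 69.9, 95.2, 79.6, 79.9 and 60.2 CPM in GRflox. It varied widely within both groups, with GRMAC 4 lowest and GRflox 2 highest, and its log2 fold change of −0.17 ± 0.14 had an interval of −0.47 to 0.13. None of these 7 passed the test, and their adjusted p ran from 0.582 to 0.941.

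**Figure D3:**
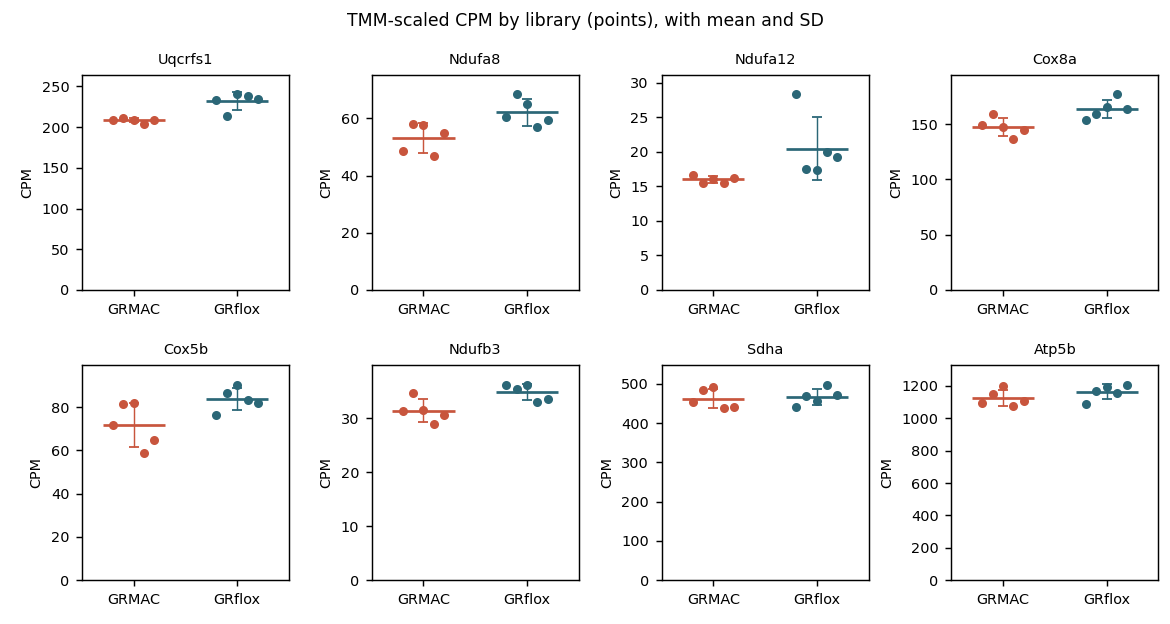
CPM of 8 subunit genes in each library (points; line and bar give mean and SD; n = 5 each; axes start at 0). The 5 GRMAC libraries of Uqcrfs1 lie between 204 and 211 CPM and below all GRflox libraries, the GRflox points of Ndufa12 include one at 28.3 CPM, and Sdha and Atp5b overlap.

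In complex IV, cytochrome c oxidase, 12 of 13 tested genes were negative with a median of −0.07. Without GRMAC 4, 10 were negative, and without both GRMAC 4 and GRflox 4 it was 9, with a median of −0.04. Cox8a, the small subunit expressed in all tissues (mm10 chromosome 19, 7215158 to 7217616, minus strand), was at 149, 159, 147, 137 and 144 CPM in GRMAC, against 154, 159, 165, 177 and 163 CPM in GRflox. GRMAC 2 lay above GRflox 1, and GRMAC 4 was lowest. Cox5b, a zinc-binding subunit on the matrix side (mm10 chromosome 1, 36691487 to 36693388, plus strand), was at 71.7, 81.3, 81.6, 58.97 and 64.99 CPM in GRMAC, against 76.5, 86.4, 90.3, 83.3 and 81.7 CPM in GRflox. GRMAC 4 and 5 were lowest, whereas GRMAC 2 and 3 lay among the GRflox libraries. The log2 fold changes were −0.15 ± 0.06 for Cox8a and −0.22 ± 0.09 for Cox5b, with unadjusted p of 0.0205 and 0.0236 and adjusted p of 0.21 and 0.224 (edgeR).

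Several complex IV subunits exist as tissue isoforms, and the liver libraries held the ubiquitous ones at high level. Cox4i1, whose relative Cox4i2 is the lung isoform, averaged 312 ± 21.1 CPM in GRMAC and 337 ± 15.3 CPM in GRflox, with a log2 fold change of −0.11 ± 0.06. Cox6a1, the liver form paired with the muscle form Cox6a2, averaged 231 ± 13.3 CPM in GRMAC and 240.1 ± 9.37 CPM in GRflox with −0.06 ± 0.06. Cox4i2, Cox6a2 and the muscle form Cox8b had at most 3 counts in any library, and the testis forms Cox7b2 and Cox8c had 0 counts in all 10, so these 5 were not tested. Ndufa4, once assigned to complex I and now counted in complex IV, averaged 195 ± 17.6 CPM in GRMAC and 198 ± 6.07 CPM in GRflox with −0.02 ± 0.07.

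Both low isoforms of the complex stood at the negative end of all 77 genes. Cox6b2, known as the testis form beside the ubiquitous Cox6b1 (mm10 chromosome 7, 4751792 to 4753094, minus strand), was at 1.81, 2.002, 3.17, 2.38 and 1.77 CPM in GRMAC, against 4.25, 3.99, 3.23, 2.29 and 3.14 CPM in GRflox. GRMAC 3 lay above GRflox 4 and 5, GRMAC 4 slightly above GRflox 4, and the other 3 GRMAC libraries below all GRflox libraries. The log2 fold change was −0.60 ± 0.20 (unadjusted p = 0.0108, adjusted p = 0.176), and in the authors' deposited table the adjusted p was 0.0938. Cox7a1, the heart and muscle form beside Cox7a2 (mm10 chromosome 7, 30184171 to 30186030, plus strand), was at 0.905, 0.539, 0.913, 1.08 and 0.494 CPM in GRMAC, against 1.25, 1.02, 1.07, 1.20 and 0.812 CPM in GRflox. These are 12 to 32 counts a library, and its log2 fold change of −0.44 ± 0.25 had an interval of −0.97 to 0.09. The ubiquitous partners were Cox6b1 at −0.08 ± 0.05 and Cox7a2 at −0.06 ± 0.06.

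Complex V had a median close to 0: over its 14 genes it was −0.01, 9 were negative, and all 14 intervals lay within 1.25-fold. The median was 0.01 when scaled by library totals, beside 0.02 over all genes tested with that scaling. It was −0.05 with 12 negative without GRflox 1, and 0.01 with 6 negative without GRflox 3. Atp5b was at 1092, 1152, 1199, 1073 and 1109 CPM in GRMAC, against 1087, 1170.2, 1192, 1156 and 1206 CPM in GRflox. The groups overlapped almost entirely, and the log2 fold change was −0.05 ± 0.06. Atp5a1, the alpha subunit of the catalytic head, averaged 913 ± 21.9 CPM in GRMAC and 936 ± 43.4 CPM in GRflox with −0.04 ± 0.06. Atp5e, the epsilon subunit of the central stalk, had the most negative value at −0.10 ± 0.07 (adjusted p = 0.516), and Atp5h, a subunit of the peripheral stalk, had −0.08 ± 0.06.

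The proton-carrying ring of complex V is made of subunit c, which Atp5g1, Atp5g2 and Atp5g3 all encode with the same mature protein. Per length, Atp5g3 stood at 434 CPM per kb, Atp5g2 at 99.8 and Atp5g1 at 17.6 CPM per kb, the last with the caution on length given above. Atp5g3, the highest of them per length, averaged 305 ± 11.9 CPM in GRMAC and 323 ± 11.7 CPM in GRflox. Atp5g1 averaged 83.01 ± 6.06 CPM in GRMAC and 83.4 ± 5.17 CPM in GRflox, and Atp5g2 averaged 73.7 ± 2.63 CPM in GRMAC and 72.1 ± 3.75 CPM in GRflox. Their log2 fold changes were −0.09 ± 0.05, −0.01 ± 0.06 and 0.03 ± 0.05. Of all 82 genes, 33 share a stretch of at least 50 bases with an annotated pseudogene, up to 12 pseudogenes for Atp5l, and Atp5g1 with 4 and Atp5g2 with 2 are among them, so reads could have been split between copies.

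Of the 4 genes outside the complexes, 2 were negative. Cox7a2l, a factor that joins complexes III and IV into supercomplexes, averaged 88.7 ± 1.44 CPM in GRMAC and 91.1 ± 4.74 CPM in GRflox with −0.04 ± 0.05. Ndufa4l2, a relative of Ndufa4 induced by hypoxia, was low at 0.682 ± 0.148 CPM in GRMAC and 0.630 ± 0.195 CPM in GRflox, with an interval of −0.46 to 0.69 on the log2 scale. Its span overlaps Shmt2, and it is one of 9 of the 82 genes whose span overlaps another gene of the table; the use of strand in counting is not given in the sources used here. Atp5s and Atp5sl, which carry ATP synthase symbols and are named after a coupling factor, had 0.07 ± 0.14 and −0.02 ± 0.08. The median of the 4 was 0.02.

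The lean was uneven across libraries. Among the 72 genes with a mean of at least 10 CPM, GRMAC 4 was the lowest of the 10 libraries in 46, GRflox 2 in 8 and GRMAC 5 in 6. GRMAC 2 was the highest in 17, GRflox 2 in 14, and GRflox 3 and 4 in 13 each. A score per library, the mean over the 77 genes of log2 CPM centred per gene, was −0.03, 0.05, 0.03, −0.14 and −0.07 in GRMAC 1 to 5 and −0.01, 0.05, 0.07, 0.06 and 0.00 in GRflox 1 to 5. GRMAC 2 and 3 lay among the GRflox libraries, and GRMAC 1, 4 and 5 lay below all of them. By complex, GRMAC 4 was the lowest of the 10 libraries in each of the 5.

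Complex IV had the widest gap between group means of this score, −0.06 ± 0.08 in GRMAC and 0.06 ± 0.03 in GRflox (SD, n = 5 each). This gap rested in part on the low isoforms Cox6b2 and Cox7a1: without them the score was −0.04 ± 0.10 in GRMAC and 0.04 ± 0.04 in GRflox, as in complex I. Complex I had −0.04 ± 0.10 in GRMAC and 0.04 ± 0.04 in GRflox, and complex V −0.01 ± 0.05 in GRMAC and 0.01 ± 0.05 in GRflox. The score of complex II was −0.01 ± 0.06 in GRMAC and 0.01 ± 0.09 in GRflox, with GRflox 1 and 2 low and GRflox 4 high. These scores are descriptions and were not tested. The spread between libraries was larger in GRMAC: the coefficient of variation had a median of 6.61% in GRMAC and 5.18% in GRflox, and 51 of 72 genes varied more in GRMAC.

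**Figure D4:**
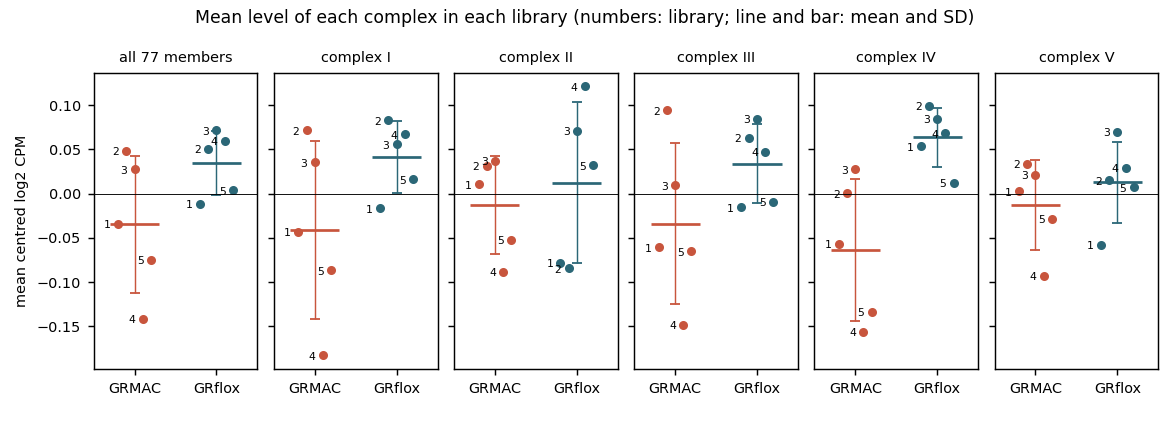
Mean over genes of log2 CPM centred per gene, for all 77 tested genes and for each complex, in each library (points numbered by library; line and bar give mean and SD). GRMAC 4 is lowest in every panel, at −0.14 over all 77 genes, and GRMAC 2 and 3 lie among the GRflox libraries in the panel of all 77 and in those of complexes I, II and V.

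**Figure D5:**
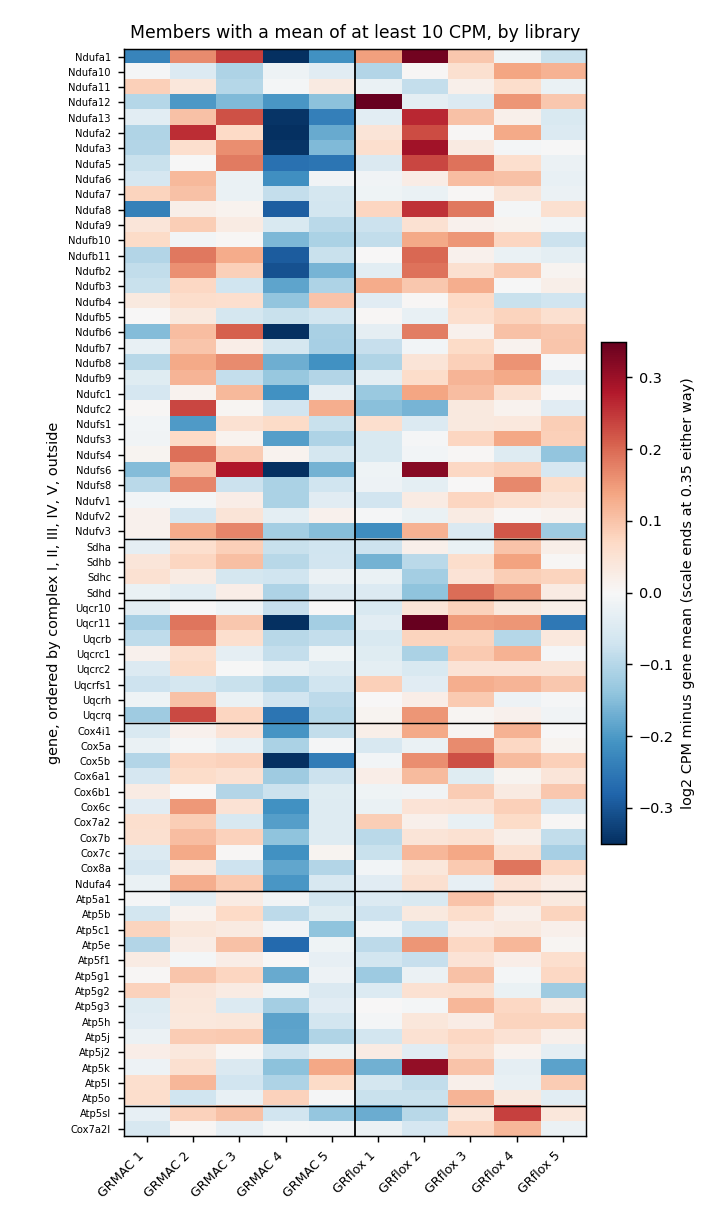
Log2 CPM minus the mean of the gene over the 10 libraries, for 71 of the 72 genes with a mean of at least 10 CPM (rows, by complex) in each library (columns; colour scale ends at 0.35 either way). The column of GRMAC 4 is blue for most rows, being the lowest library in 45 of the 71 genes.

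Many of these genes are short, and the libraries differed in how counts depended on length. The median exonic length was 745 bases over the 77 genes and 2906 bases over all genes tested with a length. The slope of log2 counts on the log2 of length, relative to the mean of the 10 libraries, was 0.05 per doubling in GRMAC 4 and 0.02 in GRMAC 5; the 8 remaining libraries had −0.02 to 0.01 (between the genotypes, two-sided exact permutation test, p = 0.0556). The slope on GC content was lower in GRMAC, −0.03 ± 0.02 per 10 percentage points, than in GRflox, 0.03 ± 0.02 (SD, n = 5 each; exact permutation test, p = 0.00794, the smallest possible). After the lengths were seen, the genes were split at 750 bases. The 39 shorter ones had a median log2 fold change of −0.08, with 33 negative, and the 38 longer ones −0.04, with 28 negative. Over all genes tested, the 324 shorter ones had a median of −0.05, with 215 negative. The 12227 longer ones had a median of 0.00, with 6032 negative.

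Across genes, which are not independent replicates and share their libraries, the Spearman correlation of the log2 fold change with length was 0.30 over the 77 subunit genes and 0.15 over all genes tested. That with GC content was −0.20 over the subunit genes and −0.22 over all genes tested. With a correction for GC content and length in each library, the median over the 77 was −0.047, with 57 negative, beside −0.015 over all genes. Without GRflox 4 and GRMAC 4 together it was −0.02, with 51 negative. Without GRMAC 4 alone, Cox7a1 and Ndufc2 joined Cox6b2, Ndufa12, Ndufa8 and Uqcrfs1 at an unadjusted p under 0.05, Ndufc2 as higher, and Cox8a, Cox5b and Ndufb3 were among those that no longer had such a p. The part of length and GC content in the lean was not tested beyond this.

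Genes that work with the complexes leaned the same way, and none was called with edgeR. Of 13 subunits and carriers that the symbols do not take in, 12 were negative with a median of −0.06. At an unadjusted p under 0.05, 4 were lower, against 7.75% of all genes tested. Etfb, which passes electrons from fatty acid oxidation into the chain, had the lowest p there, with 254 ± 10.2 CPM in GRMAC and 281 ± 14.2 CPM in GRflox and −0.15 ± 0.06 (adjusted p = 0.218). Of 45 assembly factors, 37 were negative with a median of −0.06, and 6 were lower at an unadjusted p under 0.05, against the same 7.75%. Cox14, an assembly factor of complex IV, had the lowest p, with 19.03 ± 1.61 CPM in GRMAC and 22.3 ± 1.81 CPM in GRflox and −0.23 ± 0.08 (adjusted p = 0.179).

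Of the 13 citric acid cycle genes 12 were negative, with a median of −0.10 (−0.06 without GRMAC 2). At an unadjusted p under 0.05, 5 were lower, against 7.75% of all genes tested. Dlst, the succinyltransferase of the 2-oxoglutarate dehydrogenase complex, was at 210.2, 183, 203, 235 and 209 CPM in GRMAC, against 241, 220.5, 265, 235 and 254 CPM in GRflox. GRMAC 4 was the highest of its group here, unlike for most subunit genes, and lay level with GRflox 4 and above GRflox 2. Its log2 fold change was −0.23 ± 0.07 (adjusted p = 0.165, edgeR). Of the 12 regulators of mitochondrial biogenesis tested, 9 were negative with a median of −0.06, and Esrra, a nuclear receptor that activates these genes, had the lowest p, with 55.5 ± 3.78 CPM in GRMAC and 62.1 ± 2.09 CPM in GRflox and −0.16 ± 0.06 (adjusted p = 0.183). In each of the 4 lists 0 genes were called either way with edgeR, where 0.175% of all genes tested were called. DESeq2 called 1 over the 4 lists, Mdh2, the mitochondrial malate dehydrogenase of the citric acid cycle. Its log2 fold change in that fit was −0.17 ± 0.05 (adjusted p = 0.0473). The same fit called 1.66% of all genes lower and 1.97% higher, so 1 call is no excess over the lists.

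Promoters of the subunit genes were read for motifs named in the literature on this pathway. RefSeq sequence of GRCm38.p6, from 250 bases before to 50 bases after the start of the gene, was found for 64 of the 82 genes. GCGCATG, the core of the site of NRF1, an activator of respiratory chain genes, lay in 20.3% of these promoters, against 7.67% of the promoters of tested genes and 4.41% of all 27025 promoters. CCGGAAG, the core of an ETS site such as that of GABP, lay in 25.0%, against 19.3% of tested genes and 9.93% of all. AAGATGG, the core of a YY1 site, lay in 14.1%, against 8.35% of tested genes and 7.28% of all. GGGCGG, an Sp1 site, lay in 40.6%, against 67.1% of tested genes and 38.2% of all. TATAAA lay in 9.38%, against 8.97% of tested genes and 15.7% of all. Both strands were read, and a match describes the letters of this window and shows no binding.

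Promoters are shown for the genes that the results turn on: the gene with the lowest p, the complex I gene with the next lowest p, a complex IV gene with an NRF1 motif, and the ubiquitous and muscle forms of the same complex IV subunit. Each is the 250 bases before the start, 5′ to 3′ on the strand of the gene, with matches to these motifs on either strand in capitals. The start is that of RefSeq, which for Ndufa8 lies 46 bases upstream of the start in the count table and for the other 4 is the same.
Uqcrfs1: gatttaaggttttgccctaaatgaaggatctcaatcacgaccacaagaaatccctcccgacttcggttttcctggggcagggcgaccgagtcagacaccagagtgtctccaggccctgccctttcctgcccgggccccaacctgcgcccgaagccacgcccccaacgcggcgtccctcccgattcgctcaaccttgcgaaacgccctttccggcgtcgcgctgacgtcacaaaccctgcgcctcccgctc
Ndufa8: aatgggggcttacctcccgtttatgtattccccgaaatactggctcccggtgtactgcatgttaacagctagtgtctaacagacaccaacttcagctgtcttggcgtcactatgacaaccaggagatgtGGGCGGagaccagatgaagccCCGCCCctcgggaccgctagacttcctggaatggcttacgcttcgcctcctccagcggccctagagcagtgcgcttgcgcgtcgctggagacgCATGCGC
Cox5b: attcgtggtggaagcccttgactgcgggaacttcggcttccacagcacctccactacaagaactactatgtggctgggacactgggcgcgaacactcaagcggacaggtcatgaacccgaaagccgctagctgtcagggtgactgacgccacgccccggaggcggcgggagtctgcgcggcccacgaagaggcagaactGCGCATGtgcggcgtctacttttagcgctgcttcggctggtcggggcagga
Cox7a2: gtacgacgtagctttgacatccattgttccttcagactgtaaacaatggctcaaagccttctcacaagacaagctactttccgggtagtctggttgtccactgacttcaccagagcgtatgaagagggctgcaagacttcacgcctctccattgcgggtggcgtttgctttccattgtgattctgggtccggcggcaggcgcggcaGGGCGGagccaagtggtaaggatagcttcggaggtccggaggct
Cox7a1: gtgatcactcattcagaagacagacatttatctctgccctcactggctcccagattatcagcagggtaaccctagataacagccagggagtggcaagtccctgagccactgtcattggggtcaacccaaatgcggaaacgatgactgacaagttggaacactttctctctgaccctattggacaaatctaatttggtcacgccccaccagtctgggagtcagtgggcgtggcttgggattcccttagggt
They lie at chr13:30545317-30545566 for Uqcrfs1, chr2:36049339-36049588 for Ndufa8, chr1:36691237-36691486 for Cox5b, chr9:79759854-79760103 for Cox7a2 and chr7:30183921-30184170 for Cox7a1. Ndufa8 has the NRF1 motif close to its start and a pair of Sp1 motifs, Cox5b the NRF1 motif, Cox7a2 an Sp1 motif, and Uqcrfs1 and Cox7a1 no match in these bases.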

How the data were processed

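The authors deposited whole-number read counts per gene for polyadenylated RNA in 10 whole-liver libraries, with 1 RefSeq transcript and symbol per row, per the file headers. HISAT2 2.1.0, build mm10 and DESeq2 1.24.0 are named in the submitters' processing notes; the counting program, annotation version and use of strand are not given in the sources used here. A second deposited table gives the authors' log2 fold change of GRMAC (knockout) over GRflox (control), and its adjusted p-values are also the authors'. Its 10 columns of values per library were not used. Columns were matched to libraries by genotype and number in the titles. Coordinates are those of the count table, with the first base counted as 1.

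Genes were filtered with filterByExpr of edgeR 4.0.16 (R 4.3.3), which removed 0.0348% of counts, scaled by TMM and compared with the quasi-likelihood test with robust estimation over all 12558 genes, without covariates. P-values were adjusted by Benjamini-Hochberg over all of them, with a threshold of 0.05. Lists are described by counts and medians. GC content and exonic length came from GENCODE M21 transcripts and covered all 77 tested subunit genes. The alternatives were DESeq2 1.42.0, limma-voom (limma 3.58.1), edgeR's test with robust estimation switched off, scaling by RLE or by totals, no filter or a minimum mean CPM, a block for the replicate number, a correction for GC content and length (splines with 5 degrees of freedom per library), leaving out each library, and leaving out GRMAC 4 and GRflox 4 together. The scripts were tested on simulated data.

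The subunit genes and all lists were chosen with earlier results of these data known. Named are the 4 genes of each complex with the lowest p, the best known subunits, isoform sets, the gene with the highest level per kb in each complex and the lowest p of each list; other genes were named after their values were seen. A gene that this rule takes in is not reported here, though counts and medians include it. Intervals cover the spread between libraries, and the limit of 3 counts covers counting error only. A comparison of isoform protein sequences was not run here.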

Additional observations from a re-analysis of the deposited data

Results flagged for a closer look

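In 3 of 82 groups of 5 values (35 subunit genes named by rule and 6 library scores, those of all 77 genes and of each complex, in each genotype), 1 library stood apart from the other 4 by Dixon's criterion; chance gives about 1 in 20 such groups, or 4 of 82. Ndufa12 was at 28.3 CPM in GRflox 1, against 17.3 to 20.05 CPM in the other GRflox libraries. Uqcrfs1 was at 214 CPM in GRflox 2, below 233 to 240.1 CPM in the others. Uqcrq was at 216 CPM in GRflox 2, above 193 to 196 CPM in the others.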

How the results depend on the processing

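Over the alternatives run, 0 of the 77 subunit genes were called higher, and 0 lower except 1 (Uqcrfs1) with DESeq2. The adjusted p of Uqcrfs1 ran from 0.0191 to 0.304. The 22 genes called in all became 447 with DESeq2, 8 with limma-voom, 8 when edgeR's robust estimation was off, 34 with no filter, 9 with the GC and length correction and 68 without GRflox 4 and GRMAC 4. Leaving out 1 library gave 5 to 47: for GRMAC 1 to 5 in turn 10, 16, 14, 10 and 47, and for GRflox 1 to 5 in turn 9, 6, 5, 26 and 5. The replicate block gave 81 calls and the block with the GC and length correction 77, with 0 subunit genes in either. Same-numbered libraries were not shown to be paired, since the correlations of their deviations were 0.0759, 0.22, 0.165, −0.133 and 0.0606 for numbers 1 to 5, and no library of a number other than 3 was closest to its own number in both directions. Subunit genes lower at an unadjusted p under 0.05 numbered 5 to 13 on leaving out 1 library (5 without GRMAC 4, GRMAC 5, GRflox 2 or GRflox 3; 13 without GRMAC 3) and 5 without both libraries 4; those higher numbered 0 to 1 and 1. The median of the subunits missed by the symbols ran from −0.0567 to −0.0919 (without GRflox 1). Of 39 named genes, 30 kept their sign. On leaving out 1 library, the median of complex II ran from −0.0383 to −0.00209, of complex III from −0.0616 (without GRMAC 2) to −0.0213 and of complex V from −0.0459 to 0.0067; it was also over 1.5 times off without GRflox 2, GRflox 5, GRMAC 4 or GRMAC 5 in complex II and without GRflox 5, GRMAC 2 or GRMAC 4 in complex V. A score of complex IV without 2 low isoforms was chosen after seeing the data. The median of complex II was 0.01 without both libraries 4, and that of complex V 0.01 then, 0.01 with library totals and 0.00 with the GC and length correction. The median over all genes tested was 0.01 without both libraries 4, 0.02 with library totals and −0.01 with that correction. The signs of the others changed as follows: without both libraries 4, Sdhc was 0.00184, Sdha 0.0252, Uqcrc1 0.0219, Atp5g1 0.0308, Ndufa4 0.0329 and Ndufa4l2 −0.0121; with library totals, Sdha was 0.00445 and Atp5g1 0.0131; with the GC and length correction, Uqcrc1 was 0.0256 and Cox6a1 0.0106; with the replicate block and that correction, Uqcrc1 was 0.0279, Cox6a1 0.0103 and Uqcr10 8.19e-05. Leaving out 1 library gave −0.059 to −0.0121 for Sdhc, −0.0164 to 0.0605 for Sdhb (0.087 without both libraries 4), −0.0362 to 0.00795 for Sdha, −0.0502 to 0.00436 for Uqcrc1, −0.0392 to 0.0342 for Atp5g1, −0.0541 to 0.024 for Ndufa4 and 0.0216 to 0.29 for Ndufa4l2. The causes of these changes were not tested.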
